A study of Mus musculus with 33 samples.

Results

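The solute carriers are a large group of membrane transport proteins whose gene symbols begin with Slc, followed by a family number. Their members were taken here as every probe set that carried 1 such symbol and was called present (P, the array software's detection call) on 3 or more of 33 arrays of mouse liver. This rule gave 105 probe sets of 91 genes (of 5001 genes with a symbol that passed the same rule), out of 6568 probe sets that passed the same detection rule and 12488 on the array, while 80 further Slc probe sets did not pass. Of the 105, 37 were present on every array and 24 on 3 to 10 arrays. Just inside the rule, 4 probe sets with 3 present calls had median intensities of -2.0 to 126, and just outside it 6 with 2 calls had -26 to 28. A probe set that is bright in 1 group alone can pass through that group, so the counts below cover the probe sets that passed and not all solute carriers.

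The livers came from male adult mice, whose strain is not given in the sources used here, with 1 array per mouse. Food had been withheld for 24 h from 5 mice that received no injection. In 8 further groups (n = 3 each), fasting lasted 22 h before an injection of rapamycin at 10 mg/kg or of the vehicle alone, and 2 h later the mice were killed (0 h) or fed freely for 3, 6 or 12 h. The vehicle was 0.9% NaCl with 2% ethanol. In the last 2 groups (n = 2 each), nonfasted mice were given rapamycin or vehicle and killed 24 h later, so they differ from the refed mice also in the time since the injection. Rapamycin inhibits mTORC1, a kinase complex that links nutrients to growth. The time of day moved with the refeeding time and cannot be told apart from it.

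Solute carriers decide what enters and leaves a cell and its organelles. In the hepatocyte they take up bile acids, amino acids, sugars, vitamins and metals from blood, and carriers of the SLC25 family connect the mitochondrion with the cytosol. Others serve the endoplasmic reticulum, where glucose 6-phosphate has to enter before glucose can be released, and where ATP and nucleotide sugars have to enter for folding and glycosylation of secreted proteins. In fasting the liver burns fatty acids and makes glucose and ketone bodies, and after a meal it turns to storage, fat synthesis and secretion.

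The arrays fell into 2 sets, and this bears on many of the comparisons. Values of 0 or less made up 35.05% to 40.8% of each of 16 arrays (set 1) and 24.2% to 28.2% of each of the other 17 (set 2). Set 1 holds every fasted uninjected array, the vehicle arrays of 0 h and 6 h and those of nonfasted mice given rapamycin. Set 2 holds the rapamycin arrays of 0 h and 12 h, the vehicle arrays of 3 h and 12 h and those of nonfasted mice given vehicle. The rapamycin arrays at 3 h (1 in set 1, 2 in set 2) and at 6 h (2 and 1) are mixed. Where a comparison crosses the sets, the value from a model that also holds the set (the set term) stands beside it. Summed intensities of 5 hepatocyte markers ran from 15046 to 25463 and were lower after refeeding: 17993 to 19558 in vehicle mice at 6 h against 21425 to 23303 at 0 h, and 15046 to 18456 in rapamycin mice at 12 h against 21200 to 25463 at 0 h. No cholangiocyte marker passed the detection rule (0 of 5 listed genes, 3 of them on the array). In bulk liver, fewer cells of a type and less RNA per cell cannot be told apart.

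Promoters of 4 carriers that the results turn on are shown here: a mitochondrial carrier that fell on refeeding (Slc25a47) and 3 carriers that rose (Slc35b1, Slc25a1 and Slc26a1). Each line gives the 250 bases before the annotated RNA start from RefSeq (GRCm38.p6), 5′ to 3′ on the gene's strand, with capitals where a searched motif lies.
Slc25a47: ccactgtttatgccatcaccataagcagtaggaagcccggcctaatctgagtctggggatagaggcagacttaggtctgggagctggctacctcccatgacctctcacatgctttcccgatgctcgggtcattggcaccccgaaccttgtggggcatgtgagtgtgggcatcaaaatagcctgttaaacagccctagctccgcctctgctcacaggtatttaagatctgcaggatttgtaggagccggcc
Slc35b1: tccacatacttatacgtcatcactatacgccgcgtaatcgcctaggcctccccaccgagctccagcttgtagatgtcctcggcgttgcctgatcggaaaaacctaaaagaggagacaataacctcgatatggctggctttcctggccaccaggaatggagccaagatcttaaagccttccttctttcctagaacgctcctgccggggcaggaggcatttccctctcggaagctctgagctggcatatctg
Slc25a1: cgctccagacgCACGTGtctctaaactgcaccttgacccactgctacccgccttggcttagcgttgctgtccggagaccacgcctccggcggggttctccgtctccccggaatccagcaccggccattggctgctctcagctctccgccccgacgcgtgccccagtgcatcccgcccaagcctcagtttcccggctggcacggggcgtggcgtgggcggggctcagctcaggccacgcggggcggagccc
Slc26a1: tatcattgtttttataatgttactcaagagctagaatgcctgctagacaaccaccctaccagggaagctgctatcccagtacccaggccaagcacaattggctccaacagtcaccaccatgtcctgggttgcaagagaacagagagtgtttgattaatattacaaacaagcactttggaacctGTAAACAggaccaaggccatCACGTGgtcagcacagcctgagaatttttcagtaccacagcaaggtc
These windows lie at chr12:108850879-108851128 (plus strand), chr11:95384606-95384855 (plus), chr16:17928220-17928469 (minus) and chr5:108674797-108675046 (minus, the window of 1 of the gene's RNA starts). The Slc25a47 window lies inside the gene's annotated span, which begins at 108849833. Another window of Slc26a1, at chr5:108675366-108675615 (minus) and not shown, held none of the searched motifs. The capitals mark the E-box CACGTG in Slc25a1 and, in Slc26a1, first the forkhead motif GTAAACA and then an E-box, without overlap.

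Motifs were searched on both strands from 250 bases before to 50 after each start, in 32841 windows of all genes and in 110 windows of 76 of the 91 carrier genes. The E-box CACGTG was in 7.15% of all windows and in 14 of the 110 carrier windows (12.7%), among them 1 each of Slc25a1, Slc25a15, Slc26a1 and Slc33a1. The forkhead motif GTAAACA was in 3.65% of all and in 2 carrier windows (Slc12a1 and Slc26a1), and the cAMP element TGACGTCA in 1.79% and 2 (Slc25a25 and Slc25a36). The sterol element TCACNCCAC was in 1.24% of all windows and in 3 carrier windows (2 of Slc23a2, 1 of Slc2a8), and the amino acid response core TGATGNAAT in 0.965% and 2 (Slc17a1 and Slc23a3). No carrier window held the endoplasmic reticulum stress element (0.119% of all) or the direct repeat of nuclear receptors (0.0396% of all). A match is a description of letters and not a site of binding.

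The first question was what refeeding changes, and 2 comparisons answer it within a single array set and without sharing an array. In vehicle mice refed for 6 h against 0 h (all in set 1), 21 carrier probe sets rose and 13 fell, beside 14.2% higher and 6.9% lower among all 6568. This is 32.4% of the carriers against 21.1% of all in either direction. In rapamycin mice refed for 12 h against 0 h (all in set 2), 19 rose and 18 fell (35.2% in either direction), beside 14.6% and 10.4% of all. A call is an adjusted p under 0.05 in a limma fit across all probe sets. The median log2 change of the carriers was 0.04 and -0.04, against 0.02 and -0.0037 for all probe sets. Both comparisons called 26 of the same carrier probe sets, 14 up and 12 down and none in opposite directions (76.5% of the first list, 70.3% of the second). The matching overlap was not counted over all 6568 probe sets. It was thus not tested whether carriers shared more calls than other probe sets. Medians and splits this close to balance depend on the scaling. With each array scaled to 1 trimmed mean, 16 rose and 15 fell in the first comparison (median -0.01) and 18 rose and 21 fell in the second, and quantile normalization turned the second median to 0.03. Of the 5 hepatocyte markers 1 was called higher and 1 lower in the first comparison (median -0.16) and 1 higher and 4 lower in the second (median -0.37), which is near the size of the smaller carrier falls there (Slc38a4, Slc27a2 and Slc25a20), and their part in those was not tested.

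**Figure D1:**
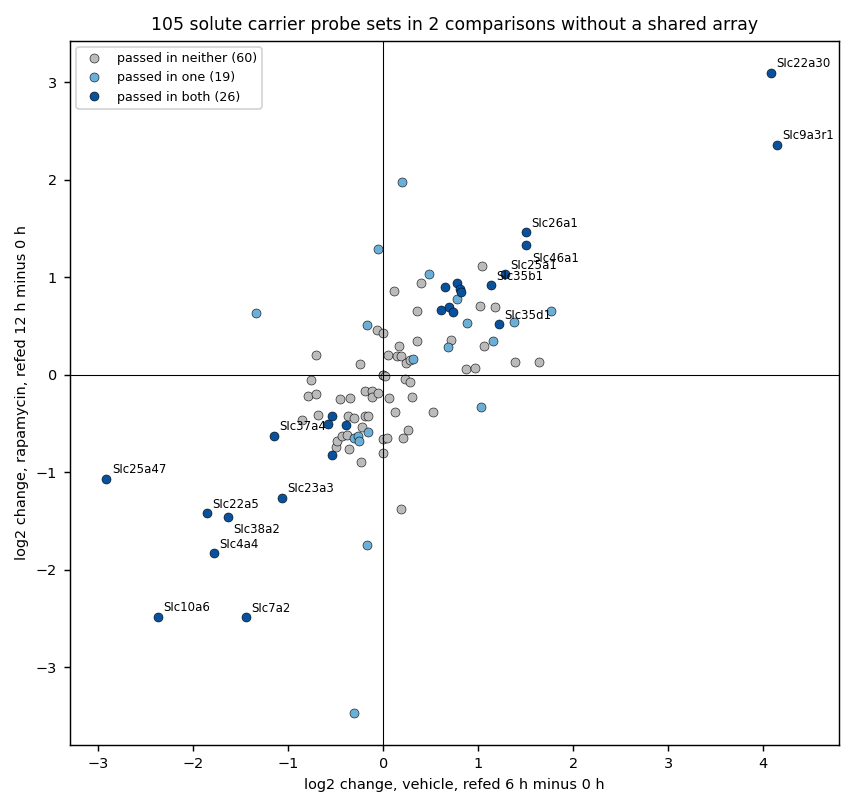
Each point is 1 of 105 Slc probe sets, with the log2 change of refed 6 h against 0 h in vehicle mice on the x axis and that of refed 12 h against 0 h in rapamycin mice on the y axis. The 26 probe sets that passed in both comparisons lie at the lower left and upper right, Slc25a47 and Slc22a30 among them.

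Mitochondrial carriers (the SLC25 family) moved both ways. Classes here and below follow the family number alone, so single members of a class may differ in location or substrate. Of 18 probe sets 3 rose and 3 fell in the vehicle comparison (median 0.11), and 2 rose and 4 fell in the rapamycin comparison (median -0.23). Slc25a47 (chr12:108849833-108856815, GRCm38.p6), a liver carrier of the inner mitochondrial membrane, had intensities of 1798, 1922 and 1613 in vehicle mice at 0 h and of 1614 to 2309 (median 1979) in uninjected fasted mice. It had 293, 254 and 176 at 3 h of refeeding, 232, 323 and 174 at 6 h, 365, 384 and 447 at 12 h, and 268 and 323 in nonfasted mice. Every fasted array thus stood well above every fed one, with no overlap. At 6 h the log2 change was -2.91 ± 0.25 (SE, adjusted p = 1.95e-08), a 7.53-fold fall, and it passed without any single array of the 6.

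Under rapamycin Slc25a47 also fell on refeeding. It had 1638, 1581 and 1466 at 0 h, 300, 268 and 374 at 3 h, 414, 247 and 304 at 6 h, and 800, 941 and 549 at 12 h. The 12 h values lay below all fasted values and above all those of 3 and 6 h. The log2 change at 12 h was -1.07 ± 0.25 (adjusted p = 0.00306), and at 3 h and 6 h, where the arrays are of both sets, it was -2.33 and -2.31 (-2.41 and -2.47 with the set term, all passing).

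The citrate carrier Slc25a1, which exports the citrate that fat synthesis uses, rose with both of its probe sets. In vehicle mice the first had 136, 109 and 193 at 0 h and 365, 362 and 313 at 6 h, a log2 change of 1.28 ± 0.16 (adjusted p = 2.33e-06). The second rose by 0.78, and under rapamycin they rose by 1.03 and 0.94. At 0 h the first probe set was lower in vehicle-injected than in uninjected mice (183 to 250, median 209), and its refed values lay above both groups. The dicarboxylate carrier Slc25a10 rose by 0.88 in vehicle mice (adjusted p = 0.0334), but this call was lost without any 1 of 4 arrays (up to adjusted p = 0.139).

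Slc25a20, which brings acylcarnitines into the mitochondrion for oxidation, fell by 0.54 on the log2 scale in vehicle mice, from 703, 706 and 670 to 445, 500 and 484. All 3 refed arrays lay below all 3 fasted ones. Under rapamycin it fell by 0.42 (adjusted p = 0.0205, up to 0.105 with 1 array left out). Slc25a51, a carrier of NAD, fell by 0.54 (adjusted p = 0.0386, up to 0.155 with 1 array left out) and 0.82 with 1 of its 2 probe sets. Slc25a15, the ornithine carrier of the urea cycle, fell in the rapamycin comparison (-0.63, adjusted p = 2.79e-04) and did not pass in vehicle mice (-0.26), and the difference between the comparisons was not tested.

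Of 15 probe sets for amino acid carriers 3 rose and 4 fell in vehicle mice (median -0.25), and 1 rose and 3 fell under rapamycin (median -0.20). Slc7a2, which takes up arginine and other cationic amino acids, had 528, 518 and 490 at 0 h and 202, 190 and 172 at 6 h in vehicle mice. Under rapamycin it went from 464, 561 and 566 to 99, 69 and 122 at 12 h. In both, the groups stood far apart, with log2 changes of -1.45 ± 0.24 (adjusted p = 1.16e-04) and -2.49 ± 0.24 (adjusted p = 1.20e-07).

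Slc38a2, a sodium-coupled carrier of small neutral amino acids, had 309, 115 and 95 in vehicle mice at 0 h and 48, 45 and 52 at 6 h (log2 change -1.64 ± 0.40, adjusted p = 0.00415). Uninjected fasted mice had only 62.2 to 103 (median 87), which overlaps the 58, 64 and 84 of vehicle mice refed for 12 h. The fall thus stands against the injected fasted mice, and in the rapamycin comparison (-1.46) its call was lost without rapamycin 0 h replicate 2 or 3 (up to adjusted p = 0.0628). Slc38a4, its relative in liver, fell by 0.39 from 2070, 2092 and 2336 to 1584, 1649 and 1717, and by 0.52 under rapamycin. The glycine carrier Slc6a9 stood at -1.34 in vehicle mice, but this call (adjusted p = 0.0421) was lost without any 1 of 4 arrays (up to 0.182).

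Slc6a6, the taurine carrier, rose in vehicle mice with both probe sets, by 1.16 and 1.38. The latter lost its call without vehicle 0 h replicate 2 or vehicle 6 h replicate 3 (up to adjusted p = 0.0625). For the former, part of the rise lies in the 0 h group, which stood 0.74 below uninjected fasted mice. That difference had an adjusted p of 0.042 by limma (up to 0.378 with 1 array left out). Slc6a13, which carries GABA and taurine, rose by 0.65 (lost without vehicle 0 h replicate 2, adjusted p = 0.0590) and, under rapamycin, by 0.90 (adjusted p = 2.77e-04). Slc1a2, the glutamate carrier, and Slc3a2, a subunit shared by several exchangers, did not pass in either comparison.

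**Figure D2:**
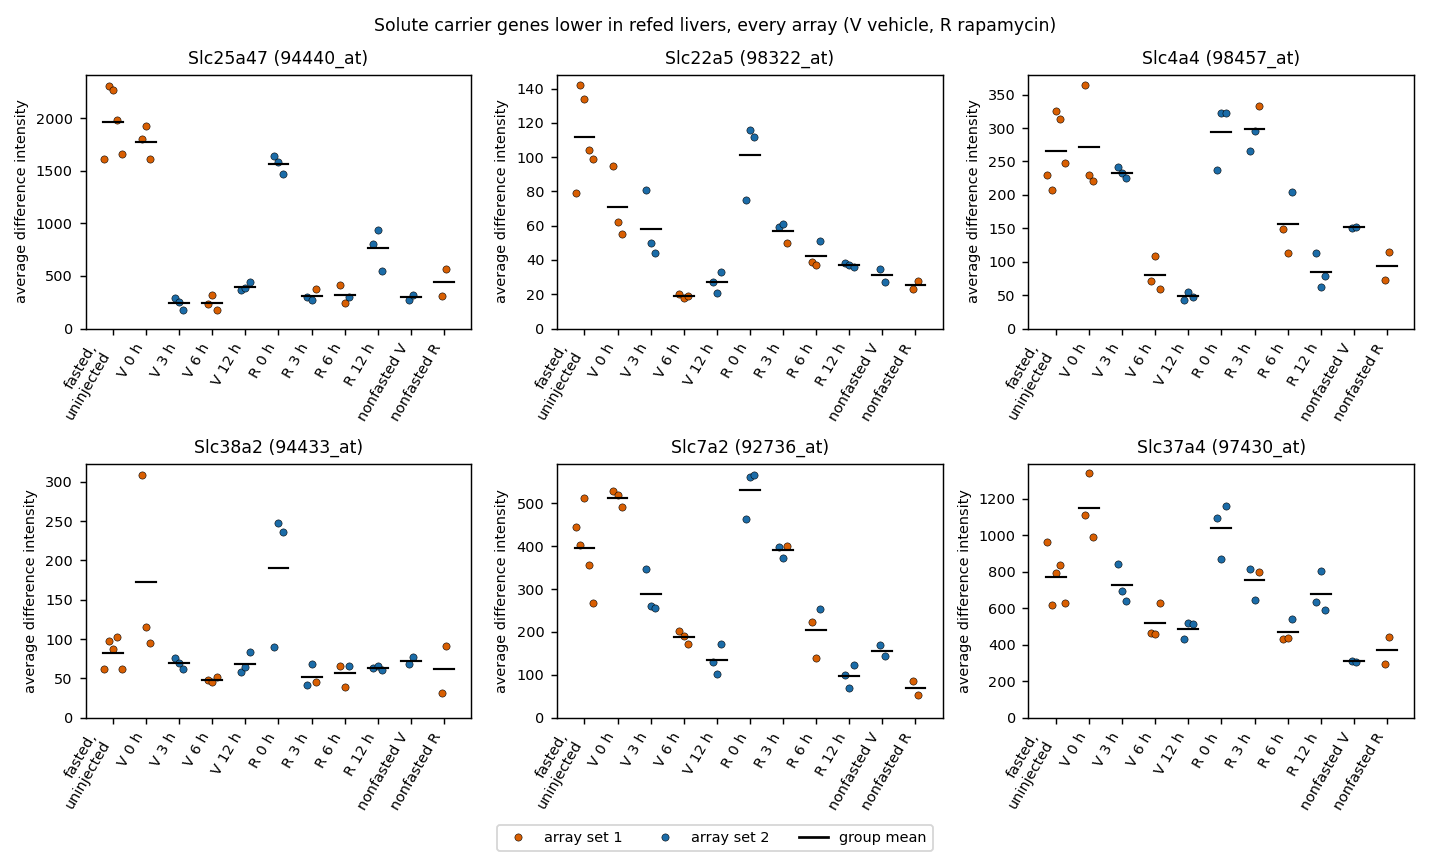
Each panel gives the intensity (linear scale) of 1 carrier on every array, by group, with V for vehicle and R for rapamycin, points coloured by array set and a line at each group mean. In the panels of Slc25a47, Slc22a5, Slc4a4, Slc7a2 and Slc37a4 the 6 h and 12 h refed arrays of vehicle mice lie below all arrays of fasted vehicle mice, and Slc38a2 stands high on single 0 h arrays.

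Among carriers of organic ions, bile acids and drugs, 3 of 11 probe sets rose and 2 fell in vehicle mice (median 0.11), and 2 rose and 2 fell under rapamycin (median 0.12). Slc22a30 (chr19:8335371-8405111), a member of the SLC22 family of organic ion carriers, rose. It had 12, 9 and 52 in vehicle mice at 0 h, 203, 340 and 305 at 3 h, 296, 272 and 336 at 6 h and 395, 435 and 450 at 12 h. Fasted uninjected mice had 31 to 70 (median 44.7) and nonfasted vehicle mice 318 and 327. All fed arrays were above all fasted ones, already at 3 h.

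The log2 change of Slc22a30 at 6 h was 4.08 ± 0.44 (adjusted p = 4.11e-07), and 3.06 with values floored at 30, since the lower group lies near the floor. Under rapamycin it had 67, 45 and 27 at 0 h and 339, 413 and 363 at 12 h (3.10 ± 0.44, adjusted p = 1.55e-05). The family has close relatives in the mouse, and cross-hybridisation of this probe set was not tested.

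Slc22a5 (chr11:53864542-53891796), the carnitine carrier of the plasma membrane, fell. In vehicle mice it had 95, 62 and 55 at 0 h, 81, 50 and 44 at 3 h, 20, 18 and 19 at 6 h and 27, 21 and 33 at 12 h. Its values at 3 h overlapped those at 0 h, and those at 6 h and 12 h lay below both. The log2 change at 6 h was -1.86 ± 0.24 (adjusted p = 5.59e-06). As every 6 h array was under 30, it was at least 2.29-fold lower, where "at least" sets the higher group (each value raised to 30 where lower) against 30. Under rapamycin it fell by 1.42 at 12 h, from 75, 116 and 112 to 38, 37 and 36.

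Slc10a6, which carries sulfated steroids, fell from 46, 52 and 46 to 8, 10 and 10 (at least 1.60-fold lower, adjusted p = 1.50e-05). Slc10a1, the main bile acid uptake carrier of hepatocytes, had 1584, 1914 and 2278 at 0 h and 2332, 2435 and 2328 at 6 h with 1 of its 3 probe sets. Its log2 change of 0.31 (adjusted p = 0.0408) did not pass after scaling to 1 trimmed mean (0.18, adjusted p = 0.294) or without any 1 of 5 of the 6 arrays (up to 0.281), and the other probe sets did not pass.

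Members of the fatty acid family SLC27 are enzymes as well, since they join fatty or bile acids to coenzyme A. Of 3 probe sets 1 fell in each comparison (medians -0.20 and -0.50). Slc27a2, which acts on very long chains, had 2009, 2124 and 1978 at 0 h and 1433, 1402 and 1266 at 6 h in vehicle mice, and the groups did not overlap. It fell by 0.58 ± 0.11 (adjusted p = 2.69e-04), and by 0.50 under rapamycin.

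None of 4 probe sets for sugar carriers passed in vehicle mice by limma (2 at an unadjusted p under 0.05, Slc2a2 and Slc2a8, median 0.01), and 1 rose under rapamycin (median 0.26). Slc2a2, the main glucose carrier of the hepatocyte, had 379, 318 and 572 at 0 h and 592, 604 and 522 at 6 h, which overlap. Under rapamycin it rose, from 546, 500 and 479 to 990, 1105 and 1018 at 12 h (1.03 ± 0.18, adjusted p = 1.48e-04).

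Of 10 probe sets for carriers of the endoplasmic reticulum and Golgi 2 rose and 1 fell in vehicle mice (median 0.09), and 4 rose and 1 fell under rapamycin (median 0.13). Slc37a4, which admits glucose 6-phosphate for the last step of glucose release, had 1110, 1339 and 992 at 0 h and 463, 461 and 628 at 6 h. It fell by 1.15 ± 0.19 (adjusted p = 8.59e-05) and, under rapamycin, by 0.62 (adjusted p = 0.0180, up to 0.0815 with 1 array left out). In vehicle mice part of the fall of Slc37a4 lies in the 0 h group, which stood 0.59 above uninjected fasted mice. That difference had an adjusted p of 0.0419 by limma (up to 0.268 with 1 array left out).

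Slc35b1 (chr11:95384856-95391776), which exchanges ADP for ATP across the membrane of the endoplasmic reticulum, rose. In vehicle mice it had 258, 271 and 266 at 0 h, 474, 422 and 514 at 3 h, 492, 631 and 638 at 6 h and 660, 803 and 591 at 12 h. All refed values lay above the 203 to 297 of uninjected fasted mice. The log2 change was 1.14 ± 0.14 at 6 h (adjusted p = 3.10e-06), and 0.92 at 12 h under rapamycin. Slc35d1, which brings nucleotide sugars into the same organelle, rose by 1.22 ± 0.14 from 165, 127 and 199 to 300, 435 and 403, and by 0.52 under rapamycin. In vehicle mice part of this rise lies in the 0 h group, which stood 0.74 below uninjected fasted mice (adjusted p = 0.00347 by limma). The highest uninjected value lay just under the lowest of these refed ones.

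Slc33a1, the acetyl coenzyme A carrier, and Slc35a1, the carrier of activated sialic acid, passed in the rapamycin comparison, at 1.28 and 1.97. Both lie near the floor at 0 h (14, 14 and 14 for the first), so that Slc33a1 was at least 1.15-fold higher and Slc35a1 at least 1.19-fold, and with a floor of 30 Slc35a1 did not pass (adjusted p = 0.174).

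Metal carriers rose in 6 of 17 probe sets and fell in none in vehicle mice, with a median of 0.52, the highest of the 11 class medians. Under rapamycin 4 rose and 2 fell (median 0.06). Slc11a2, which carries ferrous iron, had 21, 15 and 67 at 0 h and 105, 72 and 109 at 6 h (1.76 ± 0.35, adjusted p = 6.66e-04). The third 0 h array lay just under the lowest refed one. Uninjected fasted mice had 36 to 72 (median 53.2), also below the refed arrays or level with the lowest of them.

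Slc31a1, the copper carrier of the plasma membrane, rose with both probe sets, each by 0.81. The first had 197, 195 and 287 at 0 h and 412, 431 and 336 at 6 h. Under rapamycin the rises were 0.88 and 0.85. Slc39a7, which releases zinc from the endoplasmic reticulum, rose by 0.70 (90, 86 and 92 against 136, 137 and 163) and by 0.69 under rapamycin.

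Slc39a4, a zinc importer, rose by 0.74 and 0.65 with 1 probe set, while its other probe set did not pass in either. Slc39a8, another importer, rose by 1.03 in vehicle mice with the lower values near the floor, and lost its call with a floor of 30 and without any 1 of 4 arrays (up to adjusted p = 0.311). The falls under rapamycin were of 2 zinc carriers of the SLC30 family, Slc30a4 (at least 2.32-fold lower) and Slc30a3 (-0.59, up to adjusted p = 0.102 with 1 array left out), and the second probe set of Slc30a4 did not pass.

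Of 13 probe sets for inorganic ions and phosphate, 3 rose and 1 fell in vehicle mice (median 0.00), and 2 rose and 1 fell under rapamycin (median -0.23). Slc4a4 (chr5:88793858-89239656), which carries sodium with bicarbonate, had 364, 230 and 221 at 0 h, 242, 232 and 225 at 3 h, 71, 108 and 59 at 6 h and 43, 55 and 47 at 12 h in vehicle mice. Its values at 3 h lay within the range at 0 h, and from 6 h on all lay below it. The log2 change was -1.78 ± 0.26 at 6 h (adjusted p = 1.79e-05) and -1.83 ± 0.26 in the rapamycin comparison.

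Slc26a1, a sulfate and oxalate exchanger, had 103, 59 and 136 at 0 h and 302, 241 and 258 at 6 h. It rose by 1.50 ± 0.22 (adjusted p = 1.74e-05), and by 1.46 under rapamycin. Slc9a3r1 carries an Slc symbol but encodes a scaffold protein that holds carriers at the membrane, and it rose by 4.14 ± 0.53 from 43, 3 and 104 to 620, 427 and 587. The size leans on the 0 h values: it was 3.39 with a floor of 30, 3.01 without vehicle 0 h replicate 2 and 5.03 without replicate 3, and passed in each. Uninjected fasted mice had 58 to 115 (median 107), still far below the refed mice. Under rapamycin it rose by 2.36.

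Among 10 probe sets for nucleosides, vitamins, choline, urea and heme, 1 rose and 1 fell in vehicle mice (median -0.12), and 2 rose and 4 fell under rapamycin (median 0.14). Slc46a1, the proton-coupled folate carrier, had 30, 32 and 2 at 0 h and 59, 43 and 55 at 6 h. Its rise of 1.51 (adjusted p = 0.0116) rests in part on the third 0 h array, without which it is 0.74 (adjusted p = 0.103). Over all left-out arrays the adjusted p ran from 0.00375 to 0.103. Slc23a3, an ascorbate carrier relative, fell by 1.06 in vehicle mice with 1 of its 2 probe sets (lost without any 1 of 4 arrays, up to adjusted p = 0.118). Its other probe set, present on all 33 arrays, did not pass in vehicle mice. The first, present on only 5 arrays, fell by 1.26 under rapamycin (lost without rapamycin 0 h replicate 2, adjusted p = 0.0709). There Slc44a4, of the choline carrier family, fell by 0.68 (up to adjusted p = 0.143 with 1 array left out), and 1 of 2 probe sets of Slc29a1, a nucleoside carrier, was at least 2.16-fold lower (lost without rapamycin 12 h replicate 3, adjusted p = 0.0511). The monocarboxylate carriers Slc16a1 and Slc16a7 did not pass in either comparison.

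**Figure D3:**
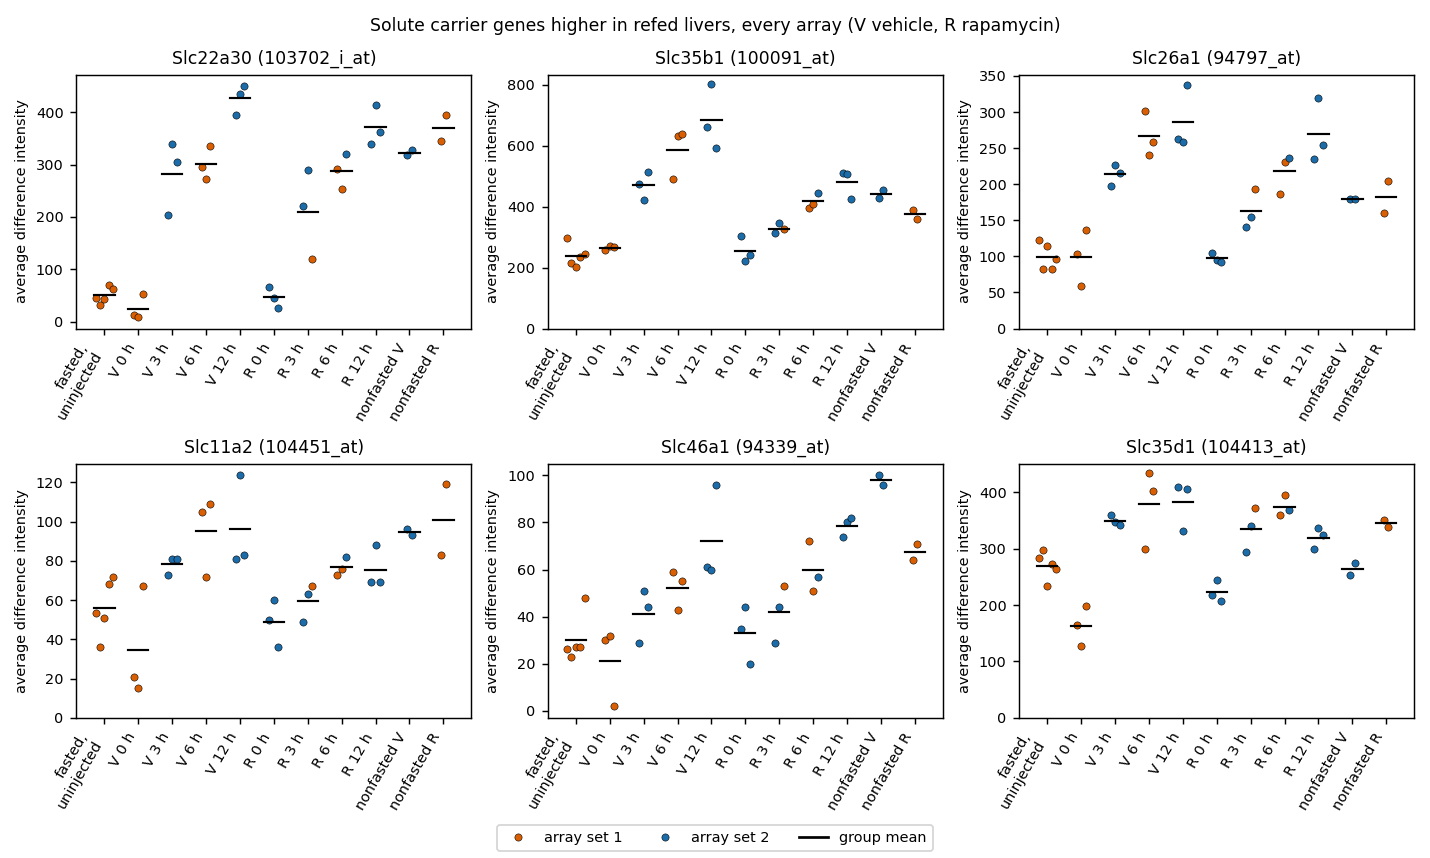
Each panel gives the intensity (linear scale) of 1 carrier on every array, by group, with V for vehicle and R for rapamycin, points coloured by array set and a line at each group mean. Slc22a30, Slc35b1, Slc26a1 and Slc35d1 stand higher on every refed array of vehicle mice than on any 0 h array of vehicle mice.

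**Figure D4:**
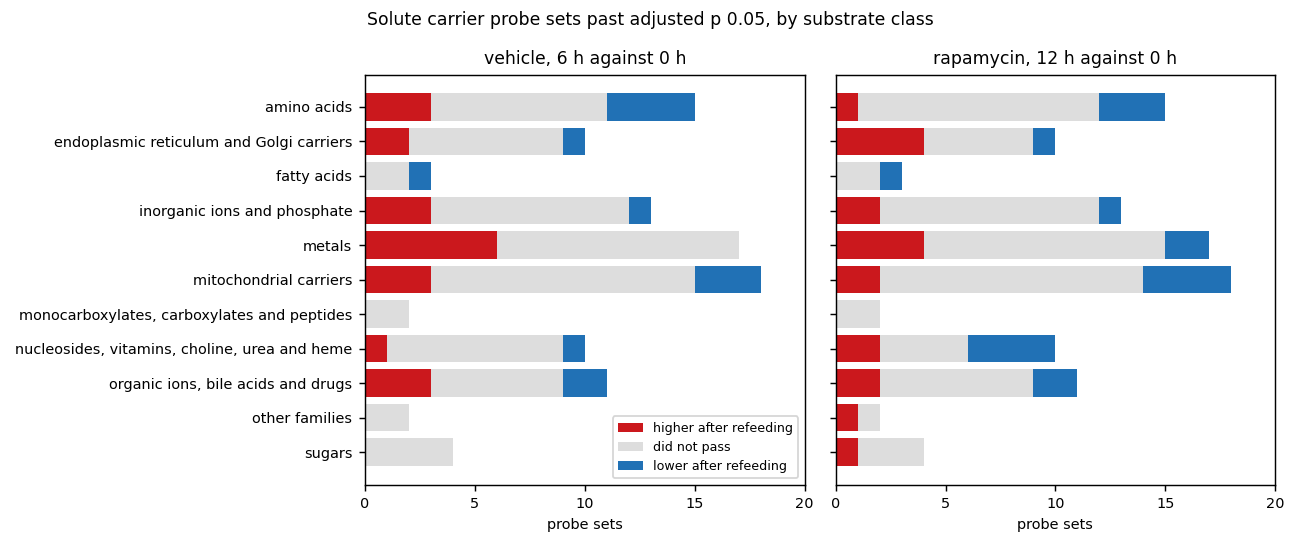
Stacked bars give, for each substrate class (y axis), the number of probe sets (x axis) that were higher (red) or lower (blue) in refed than in 0 h mice at an adjusted p under 0.05 or did not pass (grey), for vehicle mice at 6 h (left panel) and rapamycin mice at 12 h (right panel). Metal carriers had 6 higher and none lower in vehicle mice, and amino acid carriers 3 higher and 4 lower.

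How the changes are spread over time was asked within set 2, by vehicle mice refed for 12 h against 3 h, where 7 carrier probe sets were higher and 12 lower (18.1%) beside 5.8% and 5.16% of all. Slc4a4 fell between these times by 2.28 ± 0.26 (adjusted p = 3.96e-06), Slc7a2 by 1.11, from 347, 261 and 256 to 130, 103 and 173, and Slc22a5 by 1.08. Slc27a2 fell by 0.58 and Slc25a15 by 0.45 (lost without vehicle 12 h replicate 2, adjusted p = 0.0785). Slc35b1 rose by 0.54 (470 ± 46.1 to 685 ± 108, SD, n = 3 each), a call lost without replicate 2 of either group (up to adjusted p = 0.104) and under quantile normalization (0.0642). Slc25a1 rose by 0.91 and 0.67, Slc31a1 by 0.64 and Slc39a4 by 0.70. Slc50a1, of the sugar carrier class, had the largest rise (1.66), and Slc22a18 rose by 0.81. Lower too were Slc44a4 (-0.78), Slc30a3 (-0.66), Slc2a8 (-0.59) and 1 probe set each of Slc23a3 (-0.73) and Slc25a51 (-0.61). Each of these 7 calls was lost without 1 array or another (highest adjusted p from 0.0538 to 0.170). Slc25a47 and Slc22a30 did not pass between these times.

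Against 0 h the vehicle mice at 3 h and 12 h lie in the other array set, and many calls did not hold once the set was in the model. At 3 h 27 carriers were higher and 6 lower, beside 19.9% and 2.54% of all (22.4% in either direction). The fit that holds the array set as a term called 5 and 1, beside 2.68%. The 6 that passed in both fits were Slc25a47 at -2.91 (-2.67 with the term), Slc22a30 at 3.96 (3.30), Slc9a3r1 at 3.35 (3.14), Slc26a1 at 1.18 (1.29), Slc35d1 at 1.12 (1.25) and the first probe set of Slc25a1 at 0.59 (0.82). At 12 h 32 of 105 were higher and 18 lower, beside 1705 of all 6568 higher, 9.3% lower and 35.3% in either direction. With the term it was 18 and 11, beside 15.6% of all. Nonfasted against 0 h vehicle mice gave 25 and 17, beside 19.1% and 10.1% of all (29.2%), and 16 and 15 with the term (15.7%). At 12 h Slc25a47 stood at -2.16 (-1.92 with the term), Slc4a4 at -2.46 (-2.67), Slc7a2 at -1.95 (-2.18), Slc22a5 at -1.37 (-1.72), Slc37a4 at -1.23 (-1.32), Slc22a30 at 4.58 (3.93), Slc26a1 at 1.60 (1.70) and Slc35b1 at 1.36 (1.28), and all 8 passed in both fits. In nonfasted mice Slc25a47 stood at -2.59 (-2.36), Slc37a4 at -1.88 (-1.97), Slc7a2 at -1.71 (-1.95), Slc22a30 at 4.18 (3.53) and Slc35b1 at 0.74 (0.66), which passed in both, while Slc4a4 at -0.80 (-1.01) did not with the term (adjusted p = 0.0900). In the nonfasted comparison Kupffer cell markers were higher in 7 of 12 probe sets (median 0.85, 2 with the term), with sums of 1477 to 2007 against 941 to 1021, and 1 of 3 endothelial probe sets was higher (0 with the term). In the 12 h comparison 4 of 5 hepatocyte markers were lower (1 with the term). Their part in the carrier changes was not tested. All 3 comparisons share the 0 h arrays with the one at 6 h. Without vehicle 0 h replicate 2 the count at 3 h was 20, and without nonfasted vehicle replicate 2 that of the nonfasted comparison was 27.

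The splits between higher and lower calls depend on the scaling. With quantile normalization the 3 h comparison had 15 higher and 6 lower, and with a common trimmed mean 16 and 10. At 12 h it was 27 and 24, and 22 and 25. In nonfasted mice it was 20 and 21, and 21 and 27. These scalings shifted the median of all probe sets by -0.24 and -0.26 at 3 h, by -0.19 and -0.25 at 12 h, and the second by -0.14 in nonfasted mice.

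Rapamycin mice refed for 3 h against 0 h gave 2 higher and 3 lower carriers, beside 1.58% and 1.2% of all (2.79%), and 1 and 3 with the term (1.93%). Slc25a47, Slc10a6 and Slc38a2 stood at -2.33, -2.01 and -1.78 (-2.41, -1.83 and -1.67 with the term) and Slc22a30 at 2.19 (2.40), and all 4 passed in both fits. The call of Slc38a2 held in 2 of 6 fits with 1 array left out (up to adjusted p = 0.109). At 6 h 16 were higher and 13 lower, beside 10.7% and 10.1% of all (20.8%), and 12 and 9 with the term (9.42%). Those that passed in both fits include Slc7a2 at -1.41 (-1.26), Slc37a4 at -1.15 (-1.09), Slc22a5 at -1.24 (-1.01), Slc2a2 at 0.68 (0.73), Slc35b1 at 0.72 (0.77) and Slc26a1 at 1.16 (1.09). That of Slc2a2 was lost without rapamycin 6 h replicate 1 (adjusted p = 0.0510).

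Whether 12 h of refeeding restores the fed state was asked with nonfasted against 12 h refed vehicle mice (n = 2 and n = 3, all in set 2). Carriers differed in 2 probe sets upward and 4 downward, beside 1.93% and 4.07% of all, so that their share in either direction, 5.71%, was near the background of 6.0%. Slc4a4 had 151 and 152 in nonfasted mice and 43, 55 and 47 in refed ones, so that the refed values lay below the nonfasted ones. The log2 difference was 1.66 ± 0.29 (adjusted p = 9.52e-04), and it passed without any 1 array. Slc27a5, which joins bile acids to coenzyme A, was higher in nonfasted mice by 0.73 (1457 and 1438 against 665, 981 and 1014).

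Slc35b1 was lower in nonfasted than in refed mice, with 429 and 454 against 660, 803 and 591 (-0.62, adjusted p = 0.0181). Slc39a7 stood at -0.84, Slc2a2 at -0.67 and Slc25a39, which carries glutathione into mitochondria, at -0.32. These 4 calls and that of Slc27a5 were lost without single arrays (highest adjusted p from 0.115 to 0.400), and after either scaling 1 of the lower calls was left. Quantile normalization shifted the median of all probe sets by 0.11 here. In the same comparison Kupffer cell markers were higher in 3 of 12 probe sets and lower in none, with summed intensities of 1477 to 2007 in nonfasted and 964 to 1017 in refed mice, and 1 of 3 erythroid probe sets was higher. The part of these cells in the differences was not tested.

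An injection of vehicle before the end of the fast was compared with none (n = 3 and n = 5, all in set 1). Of the carriers 1 was higher and 5 were lower, beside 2.94% of all in each direction (5.88% in either). Slc35d1 had 165, 127 and 199 after the injection and 233 to 298 (median 272) without it, with no overlap. Its log2 difference of -0.74 ± 0.13 (adjusted p = 0.00347) passed without any single array. Slc23a2, an ascorbate carrier, stood at -0.76, Slc6a6 at -0.74, Slc25a1 at -0.59, Slc22a30 at -1.45 (-0.43 with a floor of 30, adjusted p = 0.439, the highest of 11 alternatives that started at 0.0236) and Slc37a4 at 0.59. These 5 calls were lost without 1 array or another. Without vehicle 0 h replicate 3, which had 52 for Slc22a30 where replicates 1 and 2 had 12 and 9, the count of carriers was 21.

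The last question was what rapamycin changes. At each refeeding time taken alone few or no carriers passed. At 12 h 1 was higher and none lower, beside 0.122% and 0.198% of all, 0.32% in either direction (18 carriers at an unadjusted p under 0.05), and it was Slc23a1, which lay near the floor on every array (9, 9 and 9 under rapamycin). At 3 h 0 passed by limma beside 0.305% of all, with 10 at an unadjusted p under 0.05 (8 in the fit with the set term). At 6 h 0 passed beside 0.0152% of all, with 9 (6). In the simulated comparison at 12 h, 83 of 100 changes of 1 log2 unit and 96 of 100 of 2 units were recovered among 6568 probe sets. There 12 probe sets without a planted change were called too. Changes were planted in bright probe sets only, with normal noise and no array sets, and were more than the 21 called in the data. The shares recovered thus do not carry over to dim carriers, to comparisons across the sets or to rarer changes.

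Before refeeding (0 h), where vehicle and drug lie in different array sets, 7 were higher and 1 lower beside 4.78% and 0.579% of all (5.36%), while the set term left 0 by limma (0.0457% of all). Those called include Slc9a3r1 (2.35, and 2.14 with the term) and Slc25a4, an ADP/ATP carrier (1.69, and -0.02). Without vehicle 0 h replicate 3 the count was 16. Quantile normalization left 3 higher and 1 lower, and a common trimmed mean 4 and 1, with shifts of the median of all probe sets by -0.13 and -0.15. In nonfasted mice, also in different sets, Slc7a2 alone passed, with 85 and 53 under rapamycin and 169 and 144 under vehicle (-1.22, adjusted p = 0.0467, beside 0.0761% of all higher and 0.929% lower, 1.0% in either direction). With the term it stood at -0.98 (adjusted p = 0.513) and none passed, beside 0.0914%.

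The mean drug effect over 3, 6 and 12 h of refeeding was examined after the data had been seen, and in it the array sets are balanced. The carriers that passed were Slc4a4 and Slc25a47, higher under rapamycin, and Slc35b1, lower, beside 0.411% of all probe sets higher and 1.05% lower (1.46%), and 21 carriers had an unadjusted p under 0.05. Quantile normalization gave 6 higher and 1 lower, and a common trimmed mean 4 and 1. Slc35b1 had 312, 345 and 326 under rapamycin and 474, 422 and 514 under vehicle at 3 h. At 6 h it had 394, 410 and 446 against 492, 631 and 638, and at 12 h 511, 506 and 424 against 660, 803 and 591. Its values under the drug were below those under vehicle at each of the 3 times, with no overlap within a time.

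The mean difference of Slc35b1 was -0.50 ± 0.08 (95% interval -0.67 to -0.33, adjusted p = 0.00120). It passed without any 1 of the 18 arrays (adjusted p up to 0.00443) and in all 11 alternatives tried (up to 0.00584). It was -0.52, -0.49 and -0.50 at the single times, none of which passed (adjusted p = 0.181, 0.382 and 0.167), and the set term gave -0.49 at 3 h and -0.51 at 6 h. Before refeeding the groups overlapped (303, 222 and 241 against 258, 271 and 266). In nonfasted mice it had 389 and 359 against 429 and 454 (-0.24, adjusted p = 0.636, and -0.16 with the term).

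Slc4a4 had 266, 296 and 333 under rapamycin and 242, 232 and 225 under vehicle at 3 h, 149, 113 and 205 against 71, 108 and 59 at 6 h, and 113, 62 and 78 against 43, 55 and 47 at 12 h. The drug values were higher at every time without overlap. The mean difference was 0.70 ± 0.15 (adjusted p = 0.0144), and it passed without any 1 of the 18 arrays (up to 0.0363) and in all 11 alternatives (up to 0.0325). Whether the drug effect differs between times was asked of all carriers with a limma F-test that sets 3, 6 and 12 h each against 0 h. At 0 h drug and vehicle lie in different array sets. Of the carriers 2 passed (Slc23a1 and Slc33a1, both dim) beside 1.31% of all, and 0 with the set term. In nonfasted mice the order of Slc4a4 was the opposite, 73 and 115 against 151 and 152, and it did not pass (-0.73, adjusted p = 0.332, and -0.52 with the term).

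The mean difference of Slc25a47 was 0.57 ± 0.15 (adjusted p = 0.0423), and it was largest at 12 h (0.91 ± 0.25, adjusted p = 0.154, 800, 941 and 549 against 365, 384 and 447). It passed in 6 of 18 fits with 1 array left out (up to 0.109) and in 7 of 11 alternatives (up to 0.0769). Slc22a5 stood at 0.54 (adjusted p = 0.0502, passing in 5 of 11 alternatives, 0.0316 to 0.433), with 39, 37 and 51 under the drug and 20, 18 and 19 under vehicle at 6 h, where the groups did not overlap. Slc2a2 stood at 0.39 (adjusted p = 0.0530), Slc27a2 at 0.22 (0.0693) and Slc39a7 at -0.37 (0.0651). Slc22a30 did not differ detectably (-0.25, 95% interval -0.77 to 0.27, adjusted p = 0.786).

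**Figure D5:**
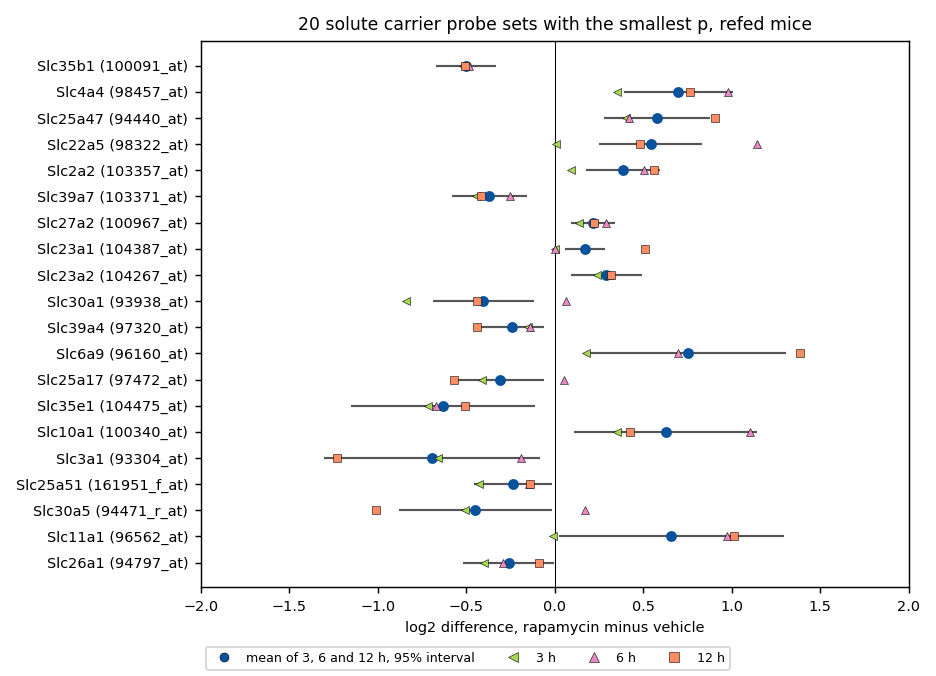
The x axis gives the log2 difference of rapamycin minus vehicle for the 20 carriers with the smallest p in the mean over 3, 6 and 12 h of refeeding, with bars for the 95% interval of that mean and small marks for the single times. Slc35b1 lies at -0.50 and Slc4a4 at 0.70, with intervals clear of 0.

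The pattern over all 11 groups was set against that of the other carriers by Pearson's r of the group means of log2 intensity (n = 11 groups, which share the array sets, given as a description). Most like Slc25a47 were Slc38a2 (0.776), Slc25a20 (0.764) and Slc22a5 (0.725). Most like Slc22a30 were Slc9a3r1 (0.956), Slc11a2 (0.938) and Slc26a1 (0.919), and most like Slc35b1 were Slc26a1 (0.955), Slc39a7 (0.944) and Slc39a4 (0.922). Slc22a5 was most like Slc4a4 (0.849), Slc10a6 (0.842) and the glucose carrier Slc2a3 (0.837).

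In 13 genes several probe sets were members, and they did not always agree. Both probe sets of Slc25a1 and of Slc31a1 passed in the same direction in both refeeding comparisons. For Slc39a4, Slc29a1, Slc30a4 and Slc25a51 only 1 of 2 passed in any of the refeeding comparisons that called it at all, vehicle at 6 h or rapamycin at 12 h, and for Slc10a1 1 of 3 did.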

How the data were processed

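Total RNA of 33 mouse livers, each from a separate mouse per the labels, was measured on Affymetrix MG-U74Av2 arrays. The deposited intensity values are average differences, with negative values kept, and per the file headers the authors scaled each array, so that the mean of values floored at 30 was 118 to 124 on every array. The deposited detection calls (2989 to 5714 present per array) chose the probe sets, and 66 further columns of per-array values were not used. Raw scans were not used here. Of 12488 probe sets 10855 have 1 gene symbol, 396 several and 1237 none.

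Values under 6.31, which is 0.1 times the arrays' average trimmed mean, were raised to it and put on the log2 scale, so fold changes of dim probe sets are understated or depend on the floor. An 11-group model was fitted with limma 3.58.1 (R 4.3.3; Python 3.11.15, numpy 2.4.6, pandas 2.3.3, scipy 1.17.1 elsewhere) over 6568 probe sets, with 22 residual degrees of freedom and Benjamini-Hochberg adjustment over all of them. Array sets were split at 31% of values at or below 0. The procedure was tested on simulated data. Alternatives were quantile normalization, scaling to 1 trimmed mean, floors of 30 and 3.16, other detection filters, the array set, a trended fit, fits of the compared groups alone, the replicate number as a block, and each array left out.

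Carriers, classes (by family number) and lists were chosen with earlier results of these data known. Picked for naming were up to 8 passing carriers per direction with the largest change and every array of the higher group above 30 (up to 4 in the comparisons across sets), 28 fixed genes (23 measured) and the brightest of each class. Not every carrier picked is given in each comparison, so those given are not always the ones with the largest change. Others named here were chosen after their values were seen. The small number of arrays limits the precision.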

Additional observations from a re-analysis of the deposited data

Results flagged for a closer look

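Among the 5 fasted uninjected mice, 1 array stood apart from the other 4 for 6 of 60 named probe sets by Dixon's test, and chance gives about 1 in 20. Slc16a7, a monocarboxylate carrier, was lowest at 94.5 where the highest was 116, and Slc29a1 was lowest at 201 where the highest was 503. Slc23a3 was highest at 180 (lowest 62.6), Slc35c2, of the nucleotide sugar family, at 108 (29.8), Slc39a8 at 36 (20) and Slc46a1 at 48 (23).

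In the limma F-test of whether the drug effect differs between times, 2 carriers passed beside 1.31% of all probe sets, Slc23a1 (adjusted p = 0.0288) and Slc33a1 (adjusted p = 0.0456). Both lie near the floor. With the array set as a term 0 carriers passed, beside 0.0914% of all.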

How the results depend on the processing

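Among the 110 gene values followed through the alternatives, no called log2 change reversed its direction. Slc25a4, not among these, was called higher for the drug at 0 h and turned slightly negative with the set term. The carriers' median and the split of higher and lower calls turned in some comparisons with the scaling, as given above. Counts of carriers called moved by over 1.5 times as follows. With only the groups compared in the fit, which leaves fewer arrays to estimate the spread, the count was 14 for vehicle 6 h against 0 h (34 in the full fit), 11 for 3 h (33), 27 for 12 h (50), 13 for nonfasted mice (42), 1 and 14 for rapamycin 3 h and 6 h (5 and 29), 0 for the injection (6), 1 for the drug at 0 h (8), 0 for the drug in nonfasted mice (1), 2 for nonfasted against refed 12 h (6) and 6 for the mean drug effect (3). With the array set as a term it was 6 for vehicle 3 h and 29 for 12 h (8 and 29 with a floor of 30 too), and 0 for the drug at 0 h and in nonfasted mice (0 with a floor of 30 too). Quantile normalization and scaling gave 3 and 3 for nonfasted against refed 12 h, 4 and 5 for the drug at 0 h, 7 and 5 for the mean drug effect and 0 and 0 for the drug in nonfasted mice (1), and quantile normalization 21 for vehicle 3 h. A floor of 30 gave 12 for nonfasted against refed 12 h (12 with the array set), 2 for the drug at 0 h and 6 for the mean drug effect (6 with the array set). Without the detection filter the injection gave 3 and the drug in nonfasted mice 0, and with 11 present calls required the mean drug effect gave 5 and the drug in nonfasted mice 0. The trended fit gave 5 for the mean drug effect, and the halved floor 2 for the drug in nonfasted mice. The 1 call for the drug at 12 h was 0 under quantile normalization, scaling, both floors, the array set with a floor of 30, the stricter filter, the trended fit and only the groups compared. The F-test's 2 calls were 1 under quantile normalization, no filter and the stricter filter, and 0 under scaling, both floors, the array set with or without a floor of 30, the trended fit and the replicate block, and it was not run with arrays left out. The causes were not tested.

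With 1 array left out the counts ran from 28 to 37 (vehicle 6 h), 13 to 19 (12 h against 3 h), 30 to 34 (rapamycin 12 h), 0 to 1 (drug at 12 h), 2 to 7 (nonfasted against refed 12 h), 2 to 21 (injection), 20 to 42 (vehicle 3 h), 43 to 50 (vehicle 12 h), 27 to 42 (nonfasted against 0 h), 3 to 5 and 24 to 30 (rapamycin 3 h and 6 h), 1 to 16 (drug at 0 h), 0 to 1 (3 h), 0 to 0 (6 h), 0 to 1 (nonfasted) and 2 to 6 (mean drug effect). Over 110 gene values and 1915 alternatives, 275 lost their call, 7 gained one and 1633 kept their side of the threshold. Same-numbered arrays were not seen to deviate together (13 of 146 correlations over 0.1, from -0.427 to 0.213), so no pairing by number was detected. As the deviations are from means of few arrays, a weak pairing could be missed. The replicate block gave 34, 19 and 35 calls in the first 3 comparisons and 2 for the injection and 0 for the F-test. Values near the floor limit the size of changes of dim probe sets.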

Other observations

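Transporters outside the solute carriers were counted over a list of ABC transporters, aquaporins and a few others (26 probe sets of 23 genes). In vehicle mice refed for 6 h against 0 h, 6 rose and 2 fell, beside 14.2% higher and 6.9% lower of all probe sets. In rapamycin mice refed for 12 h, 6 rose and 4 fell, beside 14.6% and 10.4%. Aqp8, a water channel of hepatocytes, rose by 1.54 on the log2 scale (mean intensity 41.7 to 114, adjusted p = 3.67e-05 by limma) and by 1.30 under rapamycin. Aqp9, which carries glycerol, rose by 0.52 and 0.78. In vehicle mice its mean intensity was 236 at 0 h, 326 at 6 h and 301 at 12 h, and uninjected fasted mice had 300. The vehicle rise of Aqp9 thus stands against the injected fasted mice. Abcb4, the phospholipid exporter of bile, fell by 0.49 (949 to 672) and, under rapamycin, fell by 0.86. Abce1, a factor of ribosome recycling rather than a transporter, rose by 0.85 and 0.39. In the mean drug effect over 3, 6 and 12 h, 0 passed by limma.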
